A study of Mus musculus with 12 samples.

Results

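The nuclear genes of complexes II to V of the mitochondrial respiratory chain were followed in the cochlea of mice at 3 ages. Genes were taken by their symbol in the array's probe annotation: the Sdha to Sdhd names, the Uqcr names, the Cox names from Cox4 to Cox8, the Atp5 names, and the cytochrome genes Cyc1 and Cycs. This gave 49 of the 19057 genes named in the annotation, with 8 genes of complex II, 9 of complex III and cytochrome c, 16 of complex IV and 16 of complex V. The Sdh names include 4 assembly factors, Sdhaf1 to Sdhaf4, beside the 4 subunits. The 49 genes had 78 probes, 21 of the genes having more than 1, and the brightest probe stood for its gene. A test was made for the 45 genes whose mean level lay above 5.87, the median of all probes, and Sdha, Uqcrfs1, Cox7b2 and Cox8c lay below it.

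Cochleae came from C57BL6j mice, an inbred strain known for hearing loss that begins early in adult life, which had been kept under standard conditions to 4, 15 or 45 weeks. The labels name no treatment or genotype that differs between the ages, and the vestibular organs had been taken off. Per the series' design text tissue was pooled in groups of 5, and each age had 2 pools, named a and b, each read on 2 Illumina arrays, which gave 12 arrays of 6 pools. Pools served as replicates (n = 2 at each age), so that single animals cannot be told apart, p-values measure only the spread between these pools, and their number limits the precision of every difference.

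The respiratory chain passes electrons from NADH and succinate to oxygen in the inner mitochondrial membrane, and ATP synthase uses the proton gradient this builds to make ATP. Complex II oxidises succinate, complex III hands electrons to the small carrier cytochrome c, and complex IV reduces oxygen. Several subunits of complex IV exist as isoforms of different genes, some of them characteristic of heart and skeletal muscle, and in the cochlea the stria vascularis and the sensory hair cells are known for a high demand for ATP.

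Each level is a normalized log2 signal as the authors gave it, so 1 unit is a doubling. The arrays shared a median of 5.89 and a range from 5.10 to 15.00. Of 16 genes listed as markers of sensory, stria, fibrocyte and supporting cells of the cochlea 13 lay above the median level. Their mean, from 10.10 to 10.26 over the 6 pools, joins genes of very different level. Otor lay at 6.85 to 7.69 and Tecta at 7.01 to 7.33. Otos, Coch, Gjb2 and Gjb6, characteristic of cochlear fibrocytes and supporting cells, lay between 12.52 and 13.26. The hair cell genes Slc26a5 and Pou4f3 and the stria gene Kcnq1 lay between 5.60 and 5.93 in every pool. Other hair cell genes lay higher, Otof at 7.61 to 8.12, Tmc1 at 6.90 to 7.28, Myo7a at 6.83 to 6.99 and Myo6 at 10.09 to 10.38. Of the stria genes, Kcne1 lay at 9.16 to 9.93, Atp1b1 at 12.03 to 12.53 and Dct at 11.91 to 12.35. Other tissues were present to different degrees. The mean of 22 skeletal muscle genes ran from 8.61 to 10.35, higher in pool b than in pool a at each age. Of 7 pituitary hormone genes listed, Gh lay at 5.68 to 7.18 in the younger pools and at 11.87 and 11.70 at 45 weeks. Prl lay at 5.59 to 6.16, then at 10.47 and 14.00. Cga and Tshb passed the level filter only through their 45-week pools, and Lhb and Fshb did not pass it. Pomc, at 5.60 to 5.92 in the younger pools, passed it only through the 45-week pool a, at 6.64, with 5.88 in pool b. The mean of the 5 genes that passed, 5.64 to 6.02 in the younger pools and 8.59 and 9.07 at 45 weeks, thus rests partly on the filter. Xist, which females express, reached 8.56 in the 4-week pool b and 7.60 in the 45-week pool b, against 5.85 to 5.95 elsewhere.

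Transcripts of all 4 complexes lay higher at 45 weeks than at 15 weeks, by a small amount, and differed little between 4 and 15 weeks. From 15 to 45 weeks the median difference of the 49 genes was 0.25 on the log2 scale, the middle 50% of genes lying between 0.10 and 0.32, and 43 of 49 genes were higher at 45 weeks. Over all 12595 genes tested 48.7% were higher, with a median of -0.0066, and over the 1796 genes with a mean level above 10 45.4% were higher, with a median of -0.032. No single gene passed the test. In this tissue mixture, more cells of a type and more RNA per cell cannot be told apart.

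**Figure D1:**
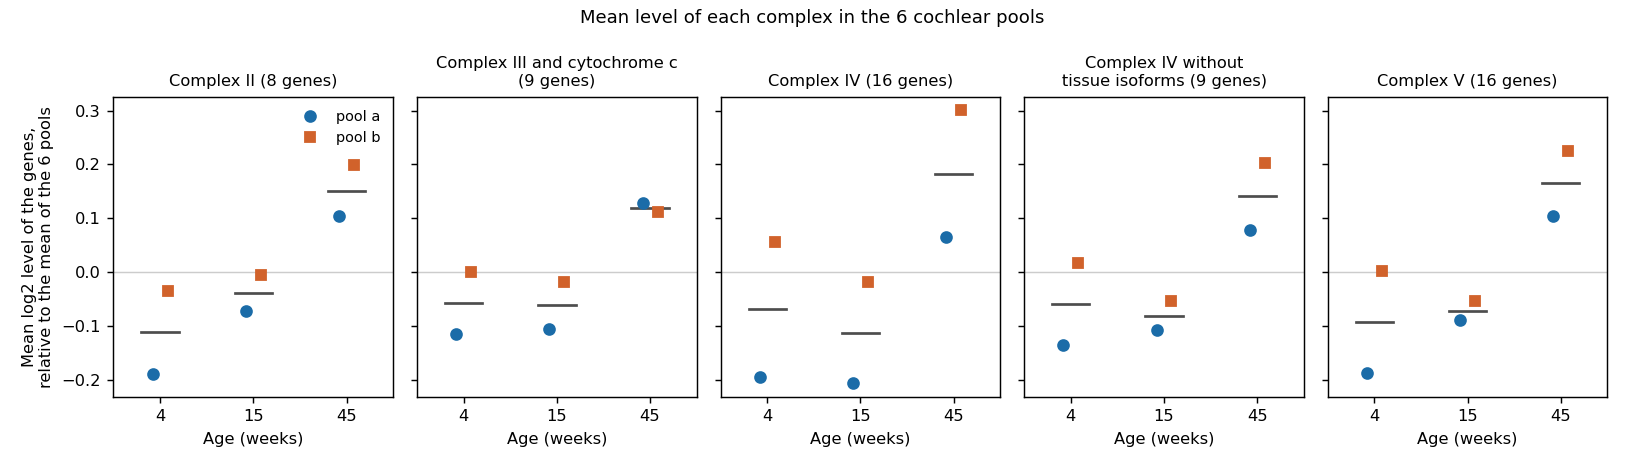
Mean log2 level of the genes of each complex in each pool, less the mean of the 6 pools, by age in weeks, with circles for pool a, squares for pool b and lines for the mean of an age. In each panel both 45-week pools lie above both 15-week pools.

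The mean level of the 49 genes was 10.48 and 10.67 in pools a and b at 4 weeks, 10.53 and 10.63 at 15 weeks, and 10.75 and 10.88 at 45 weeks. Both 45-week pools thus lay above the younger pools, while the 4-week and 15-week pools overlapped. The single arrays showed the same order, with 10.50 to 10.66 at 15 weeks and 10.74 to 10.89 at 45 weeks. From 15 to 45 weeks the mean differed by 0.24, the 4 pairs of pools giving 0.12 to 0.35, against a pooled SD between pools of an age of 0.10. From 4 to 45 weeks the mean differed by 0.24 as well (0.083 to 0.40 over the pairs), with a median over genes of 0.21 and 41 of 49 higher. From 4 to 15 weeks the mean differed by 0.0039 (-0.14 to 0.15). The 3 comparisons share their ages, so that they are not independent of each other.

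Of the 49 genes 33 had both 45-week pools above both 15-week pools, against 20.2% of all genes tested, and 3 had both below, against 21.6%. From 4 to 45 weeks the counts were 29 above, against 21.6%, and 5 below, against 25.4%, and from 4 to 15 weeks 6 above, against 11.4%, and 4 below, against 14.7%. The background shares cover tested genes only. Of the 45 members tested, 33 lay above and 2 below from 15 to 45 weeks, 29 above and 2 below from 4 to 45 weeks, and 5 above and 3 below from 4 to 15 weeks, so the 4 dim genes account for most of the members below from 4 to 45 weeks. Among the genes with a mean level above 10 the shares above and below were 20.9% and 27.1% from 15 to 45 weeks, 22.7% and 32.2% from 4 to 45 weeks, and 9.13% and 15.3% from 4 to 15 weeks. By limma's moderated test with Benjamini-Hochberg adjustment over 22640 probes, 0 of the 45 genes tested were called in any comparison, and 0% of all probes were called (smallest adjusted p of the 45 genes 1.00 from 4 to 15 weeks, 0.606 from 15 to 45 weeks and 0.271 from 4 to 45 weeks). At an unadjusted limma p under 0.05 there were 0 genes from 4 to 15 weeks, against 0.667% of probes higher and 0.667% lower, 7 from 15 to 45 weeks, all higher, against 4.01% of probes higher and 4.14% lower, and 12 from 4 to 45 weeks, all higher, against 6.65% higher and 7.21% lower. A fit of the 12 single arrays that treats the pool as a block called 0 of these genes either, with a smallest adjusted p of 0.0593 from 4 to 45 weeks.

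The muscle genes moved with the pools too. Their mean was 9.50 and 10.10 at 4 weeks, 8.61 and 9.87 at 15 weeks, and 9.31 and 10.35 at 45 weeks, with 22 of 22 genes higher at 45 than at 15 weeks (median 0.49). From 4 to 15 weeks 21 of 22 muscle genes were lower (median -0.49), and from 4 to 45 weeks 14 of 22 were higher (median 0.09), where the mean of the 49 genes differed by 0.0039 and 0.24. When the 15-week pool a, the lowest in muscle genes, was left out, the 49 genes differed from 15 to 45 weeks by 0.15 in the median, with 42 higher. When the 4-week pool a was left out, they differed from 4 to 45 weeks by 0.12, with 40 higher. With the 7 tissue isoforms of complex IV left out the median from 15 to 45 weeks was 0.22, with 38 of 42 higher. The pituitary hormone genes Gh and Prl separated the 45-week pools from the others in the same direction. The part of muscle and of pituitary tissue in the result was not tested.

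**Figure D2:**
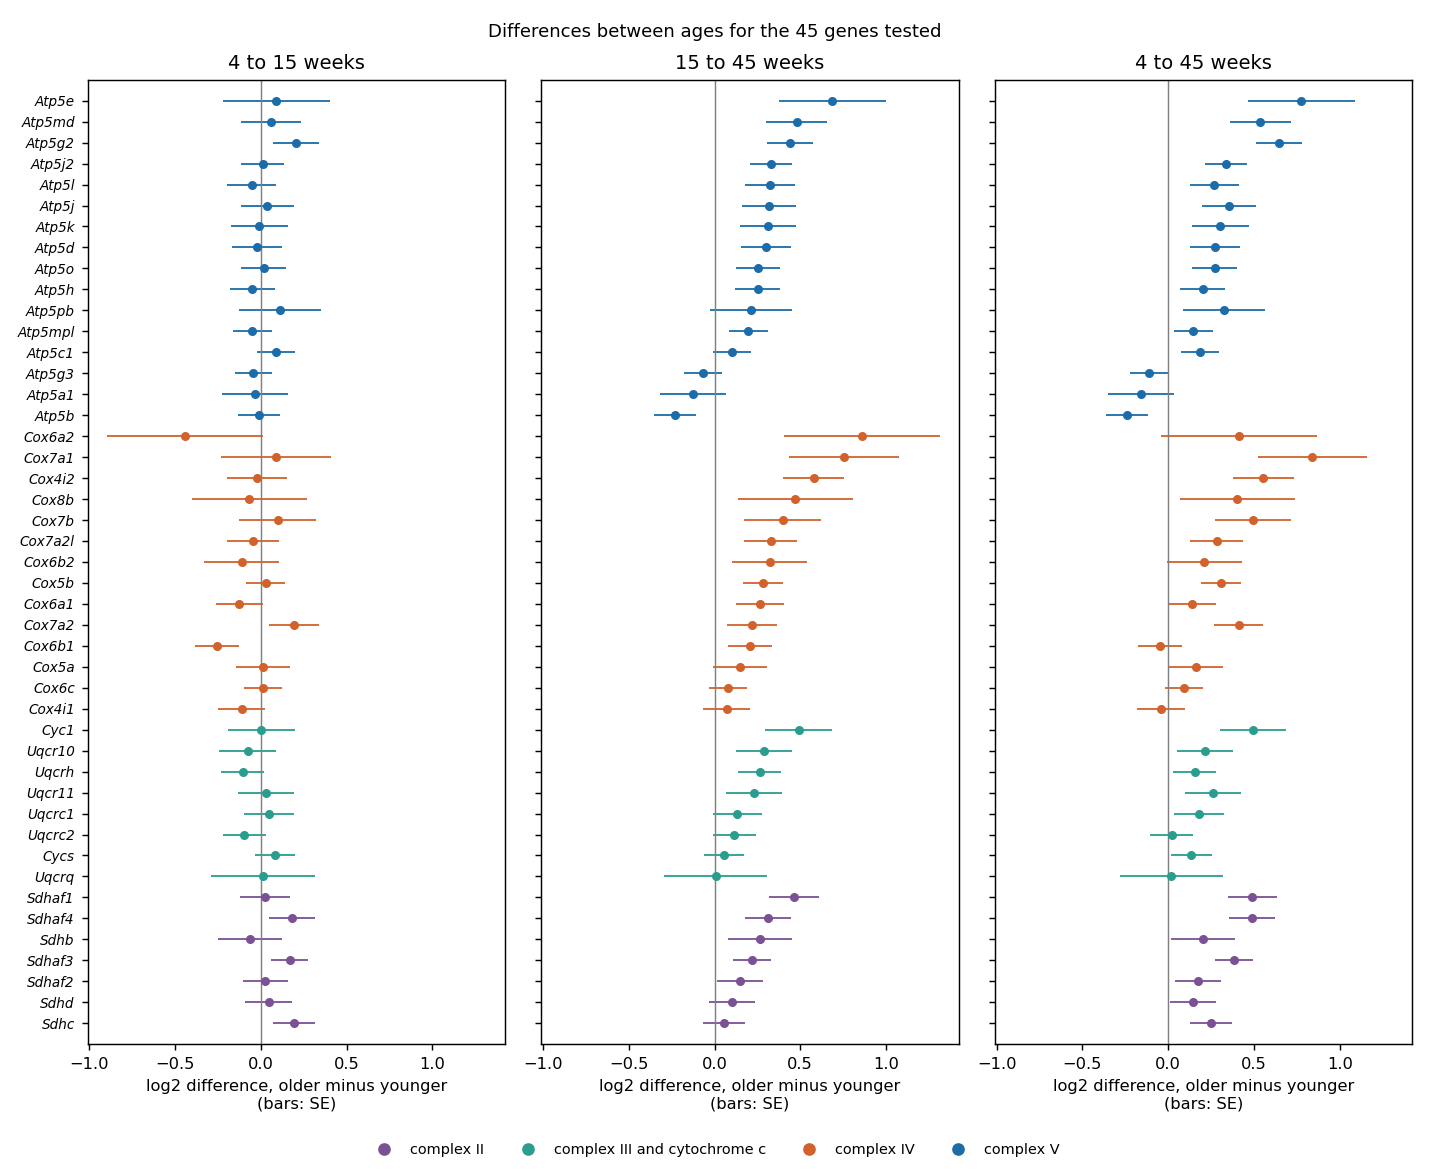
Log2 difference between ages (older minus younger, bars for the standard error of the limma fit) of the 45 genes tested, coloured by complex and ordered within each complex by the difference from 15 to 45 weeks. In the middle panel all points but those of Atp5b, Atp5a1 and Atp5g3 lie to the right of 0, and in the left panel points lie on both sides.

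The mean of each complex lay higher at 45 than at 15 weeks. From 15 to 45 weeks the mean of complex II differed by 0.19 (0.11 to 0.27 over the 4 pairs of pools), that of complex III and cytochrome c by 0.18 (0.13 to 0.23), that of complex IV by 0.30 (0.083 to 0.51) and that of complex V by 0.24 (0.16 to 0.31). These ranges overlap for every pair of complexes, but they share the spread between pools. The genes too dim to be tested belong to complexes II, III and IV and none to complex V. Over the genes tested the means differed by 0.22, 0.20, 0.36 and 0.24 in the same order. Complex IV had the widest range, and without its tissue isoforms its mean differed by 0.22 (0.13 to 0.31). The medians over genes were 0.18 with 7 of 8 genes higher in complex II, 0.13 with 9 of 9 in complex III, 0.27 with 14 of 16 in complex IV and 0.28 with 13 of 16 in complex V. Without pool b at 45 weeks the median of complex IV was 0.18 and that of complex III 0.24, and without pool a at 45 weeks that of complex III was 0.22.

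From 4 to 45 weeks the mean of complex II differed by 0.26, that of complex III by 0.18, that of complex IV by 0.25 and that of complex V by 0.26. From 4 to 15 weeks the means differed by 0.073 for complex II, -0.0046 for complex III, -0.043 for complex IV and 0.021 for complex V, and for each of them the pairs of pools gave both signs. Complex II had 7 of 8 genes higher at 15 than at 4 weeks, with a median of 0.036. That median, without pool a at 4 weeks, was -0.0046 and without pool b at 4 weeks 0.17, so its size rested on single pools.

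Since the complexes were read in the same pools, the gap between the means of a pair of complexes was also compared within each pool, a comparison added after the values were seen. From 15 to 45 weeks the gap did not overlap between the ages for 1 of 6 pairs. The mean of complex II less that of complex V was -2.48 and -2.44 at 15 weeks, and -2.49 and -2.52 at 45 weeks. The gap thus differed by -0.046 (-0.077 to -0.015 over the pairs of pools), in favour of complex V. Complex II here holds Sdha, which lay near the floor. Over the 7 genes of complex II tested the mean differed by 0.22, against 0.24 in complex V. The gap of these 7 genes to complex V overlapped between 15 and 45 weeks, but not between 4 and 45 weeks. With all members, 1 of 6 pairs did not overlap from 4 to 45 weeks. Complex II less complex III was -1.64 and -1.60 at 4 weeks, and -1.59 and -1.48 at 45 weeks. From 4 to 15 weeks 3 of 6 pairs did not overlap, those of complex II with each other complex, and complex II lay relatively higher at 15 weeks by 0.077 against complex III, 0.12 against complex IV and 0.051 against complex V. These 3 pairs share complex II and are not independent. The counts also depend on the genes included. With complex IV taken without its tissue isoforms, its gaps to complex II and to complex V did not overlap between the ages in any of the 3 comparisons. With 2 pools an age an exact two-sided permutation test cannot give a p below 0.333, so none of these gaps can pass a test.

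The upstream sequence of the genes was compared by short motifs of factors known to act on respiratory chain genes. RefSeq promoter windows of the assembly GRCm38.p6, from 250 bases before to 50 bases after a start site, were found for 38 of the 49 genes. Letters of the NRF1 motif (GCGCA and GCGC with any 1 base between them, on either strand as for all motifs here) stood in 12 of 38 genes, or 31.6%, against 5.19% of all 27025 genes with a window. Those of an ETS motif read by GABPA (CCGGAAG) stood in 15, or 39.5%, against 9.93%. The median G+C content was 57.7% against 52.7%, and both motifs are rich in G and C. The NRF1 motif was found in 4 of 7 genes of complex II, 1 of 6 of complex III, 1 of 11 of complex IV and 6 of 14 of complex V. None of the 4 tissue isoforms with a window held either motif. Matches of the YY1 motif AAGATGGC stood in 3 genes (7.89%, against 3.19%), of the MEF2 motif (CTA and TAG with any 4 bases between them) in 1 (2.63%, against 4.23%), of the E-box CAGCTG bound by myogenic factors in 2 (5.26%, against 18.3%) and of the TATA box TATAAA in 5 (13.2%, against 15.7%). No motif contains another, and a match describes letters and not a bound site.

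Of these windows 4 are shown, written 5′ to 3′ on the strand of the gene with motif matches in capitals. They include the complex V gene of smallest p and the complex II gene with the largest difference from 15 to 45 weeks. Beside these stand a ubiquitous and a muscle subunit of complex IV that are not typical of that complex. Cox6a1 was its only gene with the NRF1 motif, and Cox8b its only gene with the E-box CAGCTG. The muscle isoform Cox7a1 and the ubiquitous Cox7a2 held none of the motifs searched. The capitals mark the NRF1 motif in Atp5g2 (chr15:102670998-102671297, minus strand), the reversed ETS motif in Sdhaf1 (chr7:30322326-30322625, minus strand), the NRF1 motif at 2 places and the reversed ETS motif once in Cox6a1 (chr5:115348909-115349208, minus strand), and the CAGCTG E-box at 2 places around a TATA box in Cox8b (chr7:140900397-140900696, minus strand).
Atp5g2: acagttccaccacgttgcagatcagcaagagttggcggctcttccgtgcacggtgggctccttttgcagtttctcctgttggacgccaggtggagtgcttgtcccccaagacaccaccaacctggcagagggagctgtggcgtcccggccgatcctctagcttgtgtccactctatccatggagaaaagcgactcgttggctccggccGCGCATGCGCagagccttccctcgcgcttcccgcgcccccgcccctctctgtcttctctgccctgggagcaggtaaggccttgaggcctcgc
Sdhaf1: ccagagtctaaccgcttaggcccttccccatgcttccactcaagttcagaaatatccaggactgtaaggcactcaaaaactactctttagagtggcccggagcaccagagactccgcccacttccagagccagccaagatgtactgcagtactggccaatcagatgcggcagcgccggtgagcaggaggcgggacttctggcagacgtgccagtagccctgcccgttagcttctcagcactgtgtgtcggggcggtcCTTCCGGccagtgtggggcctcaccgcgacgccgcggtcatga
Cox6a1: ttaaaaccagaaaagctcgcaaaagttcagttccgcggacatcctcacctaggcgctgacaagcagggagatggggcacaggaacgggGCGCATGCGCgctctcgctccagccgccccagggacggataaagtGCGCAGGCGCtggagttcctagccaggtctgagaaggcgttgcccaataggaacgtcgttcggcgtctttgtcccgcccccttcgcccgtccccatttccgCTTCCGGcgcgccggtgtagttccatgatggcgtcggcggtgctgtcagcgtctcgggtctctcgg
Cox8b: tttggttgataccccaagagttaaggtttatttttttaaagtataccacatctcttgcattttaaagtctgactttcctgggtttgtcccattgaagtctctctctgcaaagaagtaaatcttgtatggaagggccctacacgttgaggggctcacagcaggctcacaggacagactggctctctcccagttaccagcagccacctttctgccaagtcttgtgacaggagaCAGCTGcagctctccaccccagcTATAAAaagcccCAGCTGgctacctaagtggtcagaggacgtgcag

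In complex II the mean of the assembly factors Sdhaf1 to Sdhaf4 differed by 0.29 from 15 to 45 weeks (0.18 to 0.39 over the pairs of pools). That of the 3 subunits tested differed by 0.14 (0.068 to 0.21), and the ranges overlap. These groups were formed after their values were seen, and the difference between them was not tested.

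Sdhaf1, which helps to insert iron-sulfur clusters into Sdhb, lay at 9.32 and 9.41 at 4 weeks, 9.23 and 9.56 at 15 weeks, and 9.81 and 9.91 at 45 weeks in pools a and b. Both 45-week pools were above all younger ones, with a difference of 0.47 from 15 to 45 weeks (SE 0.14, limma adjusted p = 0.606), or 1.38-fold. Its second probe gave 0.49. Sdhaf4, which acts on Sdha before it joins Sdhb, lay at 9.75 and 9.92, at 10.04 and 9.98, and at 10.21 and 10.44. The 3 ages did not overlap, and the difference from 4 to 45 weeks was 0.49 (SE 0.13, limma adjusted p = 0.275). Sdhaf3, with a role like that of Sdhaf1 and named after its values were seen, lay at 8.15 and 8.18, at 8.29 and 8.37, and at 8.56 and 8.54, also without overlap of the ages, and differed by 0.39 from 4 to 45 weeks (SE 0.11, limma adjusted p = 0.276). Sdhaf2, which attaches the flavin to Sdha, differed by 0.15 from 15 to 45 weeks.

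Of the subunits, Sdhb, the iron-sulfur protein, lay at 10.38 and 10.65 at 4 weeks, 10.46 and 10.45 at 15 weeks, and 10.47 and 10.96 at 45 weeks. Its 45-week pools were above those at 15 weeks by little in pool a and by more in pool b (difference 0.26, SE 0.19, limma adjusted p = 0.712, and 0.018 to 0.51 without a pool in turn). Sdhc, a membrane anchor, lay at 10.78 and 10.91, at 10.97 and 11.10, and at 11.15 and 11.04, so that the 4-week pools were lowest and the later ages overlapped (4 to 15 weeks 0.20, SE 0.12, limma adjusted p = 1.00). Sdhd, the other anchor, lay at 9.37 and 9.66, at 9.54 and 9.57, and at 9.71 and 9.61, again with overlap of the 4-week and 45-week pools, a difference of 0.10 from 15 to 45 weeks (SE 0.14). The flavoprotein gene Sdha lay between 5.47 and 5.55 in every pool, below the level at which genes were tested, and these values carry no order of the ages.

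In complex III the largest difference was that of Cyc1, which encodes the heme protein cytochrome c1. It lay at 10.11 and 10.51 at 4 weeks, 10.36 and 10.26 at 15 weeks, and 10.59 and 11.02 at 45 weeks. The 45-week pools were the highest, and the difference from 15 to 45 weeks was 0.49 (SE 0.19, limma adjusted p = 0.606), or 1.41-fold. The technical arrays of the 15-week pool a gave 10.66 and 10.06, a gap wider than the difference between the ages. Without a pool in turn the difference ran from 0.28 to 0.71. Cycs, the gene of the carrier cytochrome c, lay at 11.05 and 11.23, at 11.21 and 11.23, and at 11.28 and 11.27. On this probe the 15-week and 45-week pools were nearly level, with a difference of 0.055 (SE 0.12, limma adjusted p = 0.914). Its second brightest probe gave 0.20 and the dimmest 0.015. From 4 to 45 weeks the brightest probe gave 0.14, the second 0.44 and the dimmest -0.028.

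Among the small subunits of complex III, Uqcr10 lay at 13.52 and 13.68, at 13.32 and 13.73, and at 13.88 and 13.75, a difference of 0.29 from 15 to 45 weeks (SE 0.16, limma adjusted p = 0.654). Uqcr11 lay at 12.70 and 13.10, at 12.83 and 13.04, and at 13.18 and 13.15, a difference of 0.26 from 4 to 45 weeks (SE 0.16). Uqcrh, the hinge protein that contacts cytochrome c1, lay at 13.03 and 13.05, at 12.82 and 13.05, and at 13.18 and 13.22, a difference of 0.26 from 15 to 45 weeks (SE 0.12). For these 3 genes both 45-week pools were above all younger pools. Without a pool in turn these differences ran from 0.089 to 0.49 for Uqcr10, 0.057 to 0.46 for Uqcr11 and 0.15 to 0.38 for Uqcrh. Uqcrc2, a core protein of the matrix side, lay at 11.59 and 11.60, at 11.45 and 11.55, and at 11.51 and 11.72, with the 15-week pools below those at 4 weeks (-0.096, SE 0.12) and overlapping those at 45 weeks. The other core protein gene Uqcrc1 differed by 0.13 from 15 to 45 weeks with pools that overlapped. The probe of Uqcrq, another small subunit, was dim. Its difference from 15 to 45 weeks was 0.0066, and its 45-week pools, at 7.38 and 6.34, lay on either side of all younger pools. Uqcrfs1, the gene of the Rieske iron-sulfur protein, lay between 5.56 and 5.93 and was not tested.

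In complex IV the 3 isoforms of heart and skeletal muscle had the widest spread. Cox6a2 lay at 10.27 and 10.71 at 4 weeks, 9.44 and 10.65 at 15 weeks, and 10.40 and 11.40 at 45 weeks. Pool a at 15 weeks was far below the others and the ages overlapped (15 to 45 weeks 0.86, SE 0.45, limma adjusted p = 0.631), and without pools in turn the difference ran from 0.25 to 1.46. Cox7a1 lay at 10.44 and 11.09, at 10.55 and 11.15, and at 11.27 and 11.94. Both 45-week pools were above all younger ones, with a difference from 4 to 45 weeks of 0.84 (SE 0.32, limma adjusted p = 0.327), or 1.79-fold. Cox8b lay at 11.12 and 11.77, at 11.24 and 11.52, and at 11.38 and 12.32. Its ages overlapped, and the difference from 15 to 45 weeks of 0.47 (SE 0.34, limma adjusted p = 0.715) was 0.0016 without pool b at 45 weeks.

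**Figure D3:**
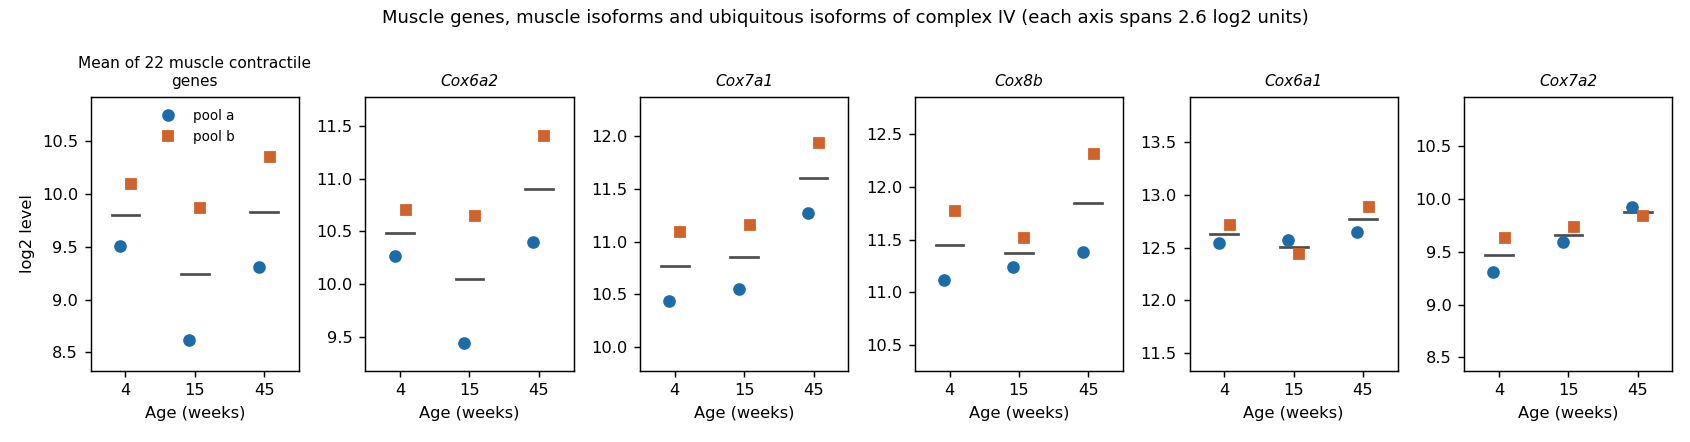
Log2 level by age in weeks of the mean of 22 skeletal muscle contractile genes, of the muscle isoforms Cox6a2, Cox7a1 and Cox8b, and of the ubiquitous isoforms Cox6a1 and Cox7a2, with circles for pool a, squares for pool b and lines for the mean of an age. Pool b lies above pool a at every age for the mean of the muscle genes and the muscle isoforms, and the ubiquitous isoforms show narrower gaps of either sign.

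The muscle isoforms stood higher in pool b than in pool a at each age, as did the mean of the contractile genes. Single contractile genes went the other way, Myl1 and Pvalb at 4 weeks and Tnnt1 and Tnnc1 at 45 weeks. The muscle list differed between the pools by 0.60 at 4 weeks, 1.26 at 15 weeks and 1.04 at 45 weeks (pool b minus pool a). Cox6a2 differed by 0.44, 1.21 and 1.00 at these ages, Cox7a1 by 0.66, 0.60 and 0.66, and Cox8b by 0.65, 0.28 and 0.94. Over the other 42 genes tested the median gap was 0.17, 0.085 and 0.057, with pool b higher for 35, 28 and 27 genes. Gaps as wide occurred among them too, as the highest was 0.92 at 4 weeks, in Atp5e, and Cox7b and Cox6b2 had gaps of 0.62 and 0.57 there. The isoforms that other tissues use varied less between the pools. Cox6a1 had gaps of 0.17, -0.13 and 0.24, and Cox7a2 of 0.32, 0.14 and -0.085. The part of muscle tissue in the differences of the 3 isoforms between ages was not tested.

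Cox6a1 lay at 12.54 and 12.71 at 4 weeks, 12.57 and 12.44 at 15 weeks, and 12.65 and 12.88 at 45 weeks. Its 45-week pools were above those at 15 weeks and overlapped those at 4 weeks (15 to 45 weeks 0.26, SE 0.14, limma adjusted p = 0.626). The technical arrays of its 15-week pool b gave 12.19 and 12.68, a gap wider than this difference. Cox7a2 lay at 9.31 and 9.63, at 9.59 and 9.73, and at 9.92 and 9.84, with both 45-week pools the highest (4 to 45 weeks 0.41, SE 0.15, limma adjusted p = 0.309). Cox8a, the partner of Cox8b, was not analysed here.

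Cox4i2, an isoform of Cox4i1 characteristic of lung, had a dim probe at 5.87 and 6.27 at 4 weeks, 5.99 and 6.10 at 15 weeks, and 6.47 and 6.77 at 45 weeks. The 45-week pools were the highest (15 to 45 weeks 0.58, SE 0.18, limma adjusted p = 0.606). This gene also had the widest gap between arrays of 1 RNA among the 49 genes, as pool b at 4 weeks read 6.73 and 5.81. Cox4i1, the main isoform, lay at 13.42 and 13.36, at 13.13 and 13.43, and at 13.40 and 13.30, with ages that overlapped (15 to 45 weeks 0.070, SE 0.14).

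Cox6b1, which caps the outer face of the complex, lay at 13.07 and 13.11, at 12.72 and 12.96, and at 13.08 and 13.01. The 15-week pools were below both other ages (4 to 15 weeks -0.25, SE 0.13, limma adjusted p = 1.00). A second, dimmer probe of Cox6b1 gave -0.089 from 4 to 15 weeks. From 4 to 45 weeks that probe gave 0.26, where the brighter probe gave -0.046. The testis isoform Cox6b2 lay between 7.62 and 8.23, with both 45-week pools above both 15-week pools, a difference of 0.32 from 15 to 45 weeks (SE 0.22). Cox7b lay at 8.73 and 9.35, at 9.12 and 9.15, and at 9.35 and 9.71, higher in both 45-week pools than at 15 weeks (0.40, SE 0.22, limma adjusted p = 0.653). The testis isoforms Cox7b2, between 5.32 and 5.61, and Cox8c, between 5.43 and 5.61, were not tested. Of the remaining genes of complex IV, Cox5b, a zinc-binding subunit, differed by 0.28 from 15 to 45 weeks, Cox7a2l, whose product can link complexes III and IV, by 0.33, Cox5a by 0.15 and Cox6c by 0.078. The technical arrays of the 15-week pool a gave 12.92 and 12.52 for Cox5b, and 10.56 and 9.92 for Cox7a2l. These gaps are wider than the differences of the 2 genes.

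In ATP synthase 13 of 16 genes lay higher at 45 than at 15 weeks, and the other 3 were Atp5a1 and Atp5b, which encode the alpha and beta subunits of the catalytic head, and Atp5g3, 1 of the genes of the membrane ring of c subunits. These 3 were singled out after their values were seen. Atp5b lay at 14.21 and 14.02 at 4 weeks, 14.13 and 14.08 at 15 weeks, and 13.84 and 13.91 at 45 weeks. Both 45-week pools were below all younger ones, and the difference from 15 to 45 weeks of -0.23 (SE 0.12, limma adjusted p = 0.631) was negative under each of 4 other scalings or single arrays and without each pool. The probe lies near the top of the array's range. Atp5g3 lay at 14.03 and 13.96, at 13.95 and 13.95, and at 13.91 and 13.86, a difference of -0.068 (SE 0.11) that was within -0.13 to -0.0070 over those scalings. Atp5a1 lay at 11.17 and 11.58, at 11.47 and 11.21, and at 11.05 and 11.38, with ages that overlapped (-0.13, SE 0.19), and its difference ran from -0.29 to 0.038 without a pool in turn.

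**Figure D4:**
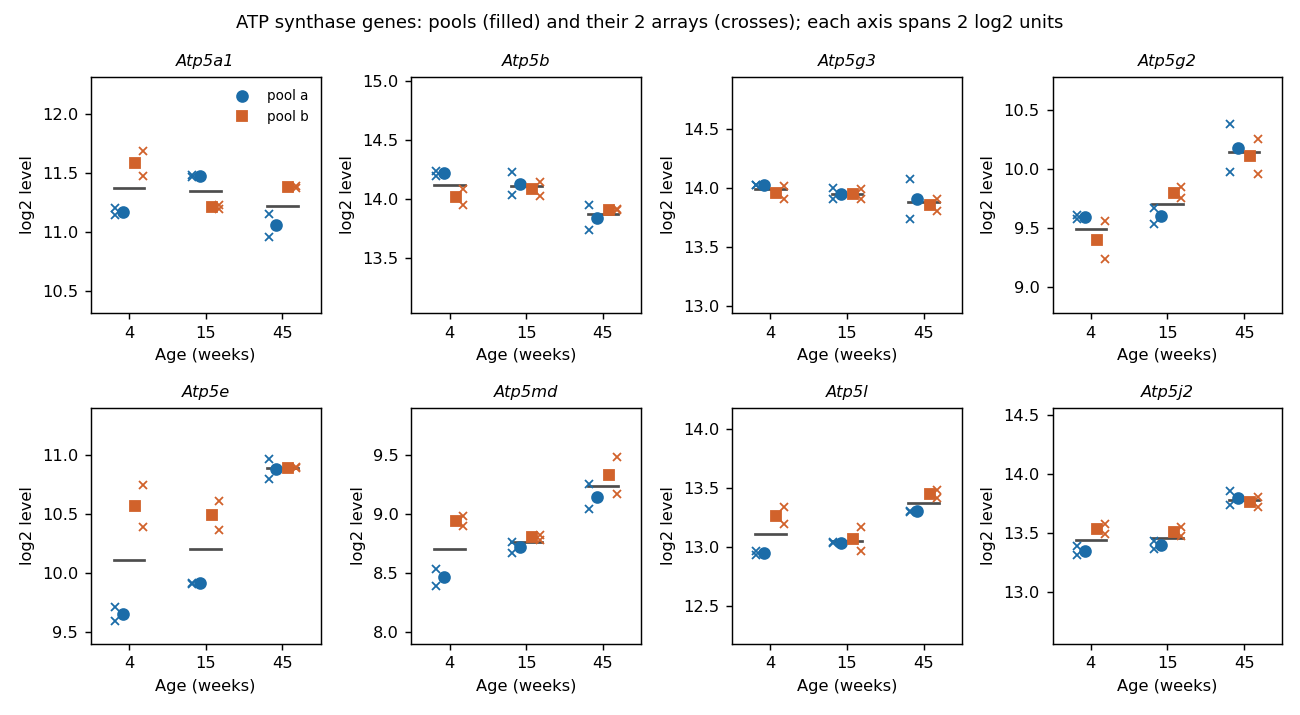
Log2 level by age in weeks of 8 genes of ATP synthase, with filled circles for pool a, filled squares for pool b, crosses for the 2 arrays of each pool and lines for the mean of an age. Atp5b is lowest in the 45-week pools, and Atp5g2, Atp5e, Atp5md, Atp5l and Atp5j2 are highest there.

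Another gene of the c ring, Atp5g2, had the smallest p of the 49 genes. It lay at 9.60 and 9.40 at 4 weeks, 9.60 and 9.80 at 15 weeks, and 10.18 and 10.11 at 45 weeks. The 45-week pools were the highest, with a difference from 4 to 45 weeks of 0.65 (SE 0.13, limma adjusted p = 0.271), or 1.57-fold, and of 0.55 to 0.75 without a pool in turn. From 15 to 45 weeks it differed by 0.44. The c-ring genes Atp5g2 and Atp5g3, which encode the same mature protein, thus differed in opposite directions, and neither passed the test.

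Atp5e, the epsilon subunit of the central stalk, lay at 9.65 and 10.57 at 4 weeks, 9.91 and 10.49 at 15 weeks, and 10.88 and 10.89 at 45 weeks. The younger pools were split by pool, pool b being higher, and both 45-week pools were above them (4 to 45 weeks 0.78, SE 0.31, limma adjusted p = 0.348), with 0.32 to 1.24 over the pools left out. The other stalk genes differed by less from 15 to 45 weeks, Atp5d by 0.30 and Atp5c1 by 0.10. Atp5md, a small membrane subunit that helps ATP synthase to form dimers, lay at 8.46 and 8.94, at 8.72 and 8.80, and at 9.15 and 9.33. Its 45-week pools were the highest (15 to 45 weeks 0.48, SE 0.18, limma adjusted p = 0.606).

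Atp5pb, part of the peripheral stalk, lay at 9.85 and 9.81 at 4 weeks, 10.20 and 9.69 at 15 weeks, and 9.86 and 10.46 at 45 weeks. The technical arrays of the 15-week pool b gave 9.30 and 10.08, and the ages 15 and 45 weeks overlapped (0.21, SE 0.24). The peripheral stalk genes Atp5h, Atp5j and Atp5o differed by 0.25, 0.32 and 0.25 from 15 to 45 weeks. Those of the membrane part, Atp5j2, Atp5l, Atp5k and Atp5mpl, differed by 0.33, 0.32, 0.31 and 0.20. All 7 had both 45-week pools above both 15-week pools. Of the 3 tested probes of Atp5o, the second brightest gave 0.39 and the dimmest -0.38. No other of the 15 genes with several tested probes had probes of both signs from 15 to 45 weeks. From 4 to 15 weeks 7 of these 15 genes had probes of both signs, and from 4 to 45 weeks 3 had.

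Genes of complex I and of the assembly of complexes II to V were compared from lists. Of 33 complex I subunit genes tested, 31 lay higher at 45 than at 15 weeks with a median of 0.31, and 29 lay higher at 45 than at 4 weeks with a median of 0.27. Their mean was 11.09 and 11.28 at 4 weeks, 11.11 and 11.23 at 15 weeks, and 11.40 and 11.52 at 45 weeks, which was the same order of pools as in complexes II to V. Of 20 assembly factor genes tested, Sdhaf1 and Sdhaf2 among them, 15 lay higher at 45 than at 15 weeks, with a median of 0.21. By limma 0 genes of either list were called in any comparison (smallest adjusted p = 0.271).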

How the data were processed

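The authors deposited log2 values of 45281 Illumina probes on 12 arrays, normalized between arrays. Sorting each column gives the same values on all arrays (largest difference 0), which is what quantile normalization does, so a shift of most transcripts at once cannot be seen. Software and background correction: not given in the sources used here. A further deposited table, of 24 columns that carry no sample's name, was left out. In the platform annotation 34885 probes have 1 symbol, 18 have several and 10378 have none. All 49 member genes matched RefSeq by gene number.

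The 2 arrays of a pool were averaged, and limma 3.58.1 in R 4.3.3 fitted 1 model over the 3 ages to the 22640 probes whose mean exceeded that of the median probe (3 residual degrees of freedom), with a threshold of 0.05 after Benjamini-Hochberg adjustment. The scripts were tested on simulated data, the limma fit with shifts larger than any difference of the members. That test does not show how well differences as small as those of the members are found. The members and lists were chosen with earlier results of these data known. Genes named with values were the 2 largest differences per complex and comparison, the subunits and isoforms listed with the design, and the gene with the widest array gap. Other genes singled out are marked as chosen after seeing values, and the remaining members are described so that each is accounted for. Lists are described by counts and medians, with no test. Alternatives were other filters, normalizations, variance models, single arrays, all arrays with the pool as a block, the replicate letter, pools left out and other choices of members or probes.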

Additional observations from a re-analysis of the deposited data

How the results depend on the processing

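No gene of complexes II to V was called by limma in any of the 16 alternatives to the fit reported, while 0 to 12 probes in all were called there and 183 from 4 to 45 weeks in the fit of the 12 single arrays with the pool as a block. The replicate letter as a replicate block left every median unchanged and the smallest adjusted p at 0.312 from 4 to 45 weeks. The labels do not say that a letter pairs samples. The gaps of pool a over pool b correlated across probes at -0.11 between 4 and 15 weeks, 0.18 between 4 and 45 and -0.39 between 15 and 45. These correlations have both signs, although the mean of the muscle genes lay higher in pool b at each age. The median of the 49 genes stayed positive without each pool, at 0.15 to 0.28 from 15 to 45 weeks and 0.12 to 0.31 from 4 to 45 weeks, but from 4 to 15 weeks it ran from -0.089 to 0.10, with 13 to 35 of 49 genes higher. Without a pool in turn, the median from 4 to 15 weeks ran from -0.0046 to 0.17 in complex II, -0.10 to 0.023 in complex III, -0.16 to 0.088 in complex IV and -0.086 to 0.10 in complex V. From 15 to 45 weeks complex III ran from 0.12 to 0.24. From 4 to 45 weeks complex II ran from 0.13 to 0.33, complex III from 0.057 to 0.22, complex IV from 0.055 to 0.33 and complex V from 0.16 to 0.37. These fits hold 1 pool at an age. With both pools of high Xist left out, a choice made after seeing the data, the median was 0.17 in complex II and 0.10 in complex V from 4 to 15 weeks, 0.24 in complex III from 15 to 45 weeks, and 0.35 in complex II and 0.23 in complex III from 4 to 45 weeks, and the cause was not tested. Other normalizations, single arrays, the mean over probes, the level filters and leaving out isoforms moved no median by more than the spread between pools, although that of the 49 genes from 4 to 15 weeks was -0.028 on the first technical array alone, and the scalings moved the median of all genes by at most 0.0088. Of 1272 differences of single named genes under alternatives, 50 changed sign. With 2 pools an age and values near the floor for 4 genes, differences of the size seen here could not be called, and detection above background was not assessed.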

Other observations

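Other lists of mitochondrial genes had medians near 0 from 15 to 45 weeks. Of 11 genes of the tricarboxylic acid cycle, which supplies electrons to the chain, 6 lay higher at 45 than at 15 weeks, with a median of 0.0075. Of 9 genes of mitochondrial carriers and pores 4 lay higher, with a median of -0.011, and over all 12595 genes tested 48.7% were higher with a median of -0.0066. Atpif1, which encodes an inhibitor of ATP synthase, lay at 13.98 and 13.81 at 4 weeks, 13.68 and 13.95 at 15 weeks, and 13.93 and 13.47 at 45 weeks, with ages that overlapped. By limma 0 genes of these lists were called (smallest adjusted p = 0.359 from 4 to 45 weeks for the carriers and 0.469 for the cycle).

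Of 12 regulators of mitochondrial biogenesis 3 lay higher at 45 than at 15 weeks, Esrra and Tfam among them, and 9 lay lower, with a median of -0.055. Ppargc1b, named after its values were seen, differed most, by -0.37 (limma adjusted p = 0.655). Nrf1 and Gabpa, also named after their values were seen, differed by -0.13 and -0.041. Ppargc1a, a coactivator of respiratory chain genes, lay at 6.96 and 6.48 at 4 weeks, 7.19 and 6.33 at 15 weeks, and 6.48 and 6.73 at 45 weeks, and the pools of an age differed by more than the ages. Esrra, a nuclear receptor that acts with it, lay at 9.13 and 9.39, at 9.37 and 9.46, and at 9.70 and 9.59, highest in both 45-week pools (4 to 45 weeks 0.38, limma adjusted p = 0.305). Tfam, which packages and transcribes mitochondrial DNA, lay at 8.16 and 8.06, at 8.19 and 8.26, and at 8.38 and 8.24, a difference of 0.20 from 4 to 45 weeks (limma adjusted p = 0.496). Whether these lists differ from the genes of complexes II to V was not tested.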
